A study of Glycine max with 46 samples.

Results

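The 10 genes described here were the soybean transcripts whose average level stood highest in late desiccation and at 16 h after imbibition, relative to dry seed, 3 h and 27 h. A normalized count is the number of reads divided by a size factor of the library. The genes were chosen from 14180 genes with a mean of at least 100 normalized counts in both late desiccation and at 16 h, out of 54175 genes in the deposited table. For each gene the lower of those 2 means plus 10 was divided by the highest of the dry seed, 3 h and 27 h means plus 10. Up to 100 genes with a ratio above 2 were to be taken, and 10 passed. A run of 768 genes on chromosome 13, Glyma13g01791 to Glyma13g12220, was left out beforehand. Because these 5 stages chose the genes, differences among them are described here without a test.

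Seeds lose water at the end of maturation and become quiescent, keeping a store of transcripts made before drying. Water uptake, called imbibition, restarts respiration, repair and protein synthesis, and new transcription follows before the root emerges. The files pair no gene ID with a name or product, and 0 of the 10 IDs were found among the 59048 genes of the RefSeq table for assembly Glycine_max_v4.0. Roles are therefore not given.

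The seeds were Glycine max, genotype Williams 82, grown at 22 °C with 16 h light and 8 h dark and given no treatment other than imbibition. The tissue is labelled whole seed, while the protocol names embryos. The 7 stages were 3 steps of desiccation (early, mid, late), the dry seed, and seeds imbibed for 3, 16 or 27 h. Each had 3 biological replicates, and each replicate had 1 to 3 sequencing runs among the 45 runs used. A run held 2.47 to 80.08 M reads counted in genes. The markers chosen to check the tissue could not be matched to the IDs. Nothing in the labels says whether replicates came from separate plants, so p-values measure the spread between these samples.

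Libraries differed within stages. Across 7032 genes with means under 2 at 16 h and 27 h, the mean was 0.22 and 0.19 normalized counts in early desiccation replicates 1 and 2 and 10.3 in replicate 3. In late desiccation it was 9.84 and 7.64 in replicates 1 and 2 and 0.95 in replicate 3, which had 1 run of 2.53 M reads.

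The runs of a replicate did not hold the same amounts of 9 of the 10 genes. Here the first run is run 1 and the last run is the highest-numbered run of a replicate with more than 1. The 9 genes reached high levels in late desiccation and at 16 h in the first runs, and were at 66.7 normalized counts or less in the last runs of the same replicates. The name of the group, transcripts that peak in late desiccation and at 16 h, therefore describes these genes in the first runs and not in the last runs. It holds against dry seed, 3 h and 27 h, because the rule did not set 16 h against mid desiccation. All 16 h first runs lay above all mid desiccation first runs only in Glyma11g33922 and Glyma07g08601. They lay below in Glyma18g10324 and overlapped in the others, as in Glyma09g28800 with 40881 to 94749 at 16 h and 17180 to 47592 in mid desiccation. The remaining gene, Glyma04g08020, differed by less than 2-fold between first and last runs and was highest in early desiccation.

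Glyma09g28800 had the highest ratio, 95.8. In the first runs it measured 491577, 332795 and 658114 normalized counts in late desiccation replicates 1 to 3. At 16 h it measured 94749, 40881 and 84471. All late desiccation values lay above all 16 h values, and both groups lay far above the other 3 stages of the rule. First runs gave 9.19, 66.1 and 62.4 in dry seed, 1686, 436 and 71.0 at 3 h, and 102, 528 and 24.7 at 27 h. In the last runs the same gene measured 52.0 and 43.3 in late desiccation replicates 1 and 2, and 0.53, 10.9 and 4.11 at 16 h. Last runs at 16 h overlapped those at 3 h, which gave 4.70, 13.2 and 26.6.

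Glyma11g33922, the next in ratio, followed the same order. Its first runs gave 209859, 167946 and 329881 normalized counts in late desiccation and 43608, 35663 and 66897 at 16 h. Its last runs gave 0.33 and 3.00 in late desiccation and 0, 0.69 and 0 at 16 h. The first runs were thus high in every replicate of both stages, and the last runs at or near 0 in every replicate.

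Glyma15g03080, with a ratio of 74.1, gave 27956, 25338 and 39937 normalized counts in late desiccation first runs and 7352, 3350.1 and 6759.8 at 16 h. Glyma04g26810, with a ratio of 26.9, gave 43318, 49620.1 and 66898 in late desiccation first runs and 8639, 4442 and 7518 at 16 h. In both genes the stages did not overlap. Glyma04g26810 kept 133, 365 and 75.1 in dry seed first runs, whereas its last runs were at 0 in all 3 dry seed replicates. Glyma18g10324, with a ratio of 11.0, gave 30542, 32468 and 41882 in late desiccation first runs and 4941, 2449 and 4056 at 16 h. For this gene mid desiccation, with 8333, 6734 and 5529.9, and not 16 h, was the second-highest stage.

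The other 4 of the 9 were Glyma05g16213, Glyma07g08601, Glyma19g26850 and Glyma07g08595, with ratios of 37.3, 25.2, 23.9 and 12.2. Among them, late desiccation first runs ranged from 1960.1 to 19964 normalized counts and 16 h first runs from 436 to 2893. Late desiccation lay above 16 h without overlap in each. Glyma19g26850 had the widest gap of the 9, 12.7-fold between the late desiccation and 16 h means of the first runs, and Glyma07g08601 the narrowest, 2.67-fold. All 9 genes had late desiccation first runs above all 16 h first runs, while 18.3% of the 46537 genes tested did so. All 9 also had late desiccation first runs above all mid desiccation first runs, against 6.16% of the genes tested. With runs averaged, 9 of the 10 had a higher mean in late desiccation than at 16 h, against 52.4% of the 14180 genes, and 9 had their highest stage mean in late desiccation, against 13.3% with it in late desiccation or at 16 h. The rule used late desiccation and 16 h, and nothing is read from these counts.

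**Figure D1:**
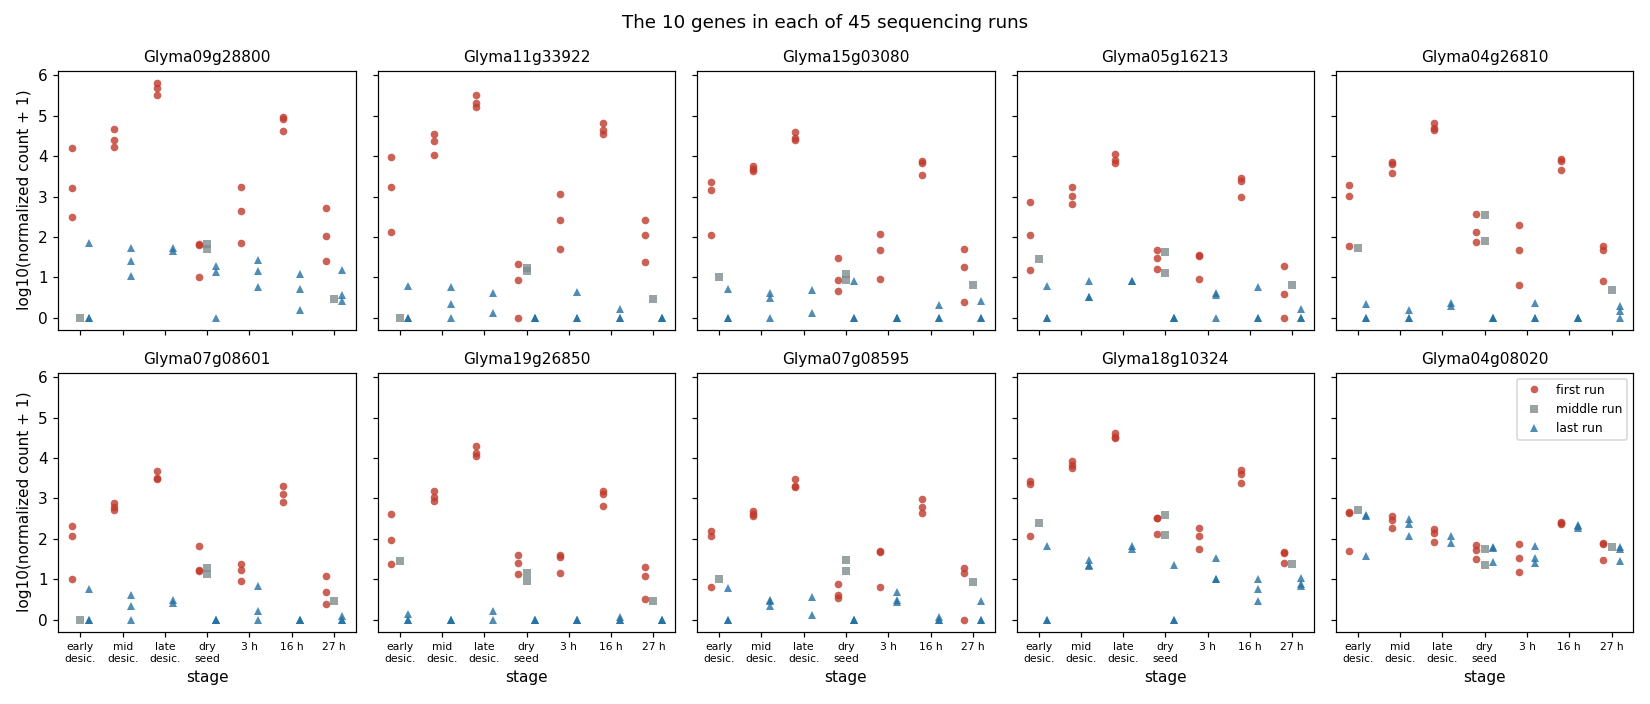
Each panel is 1 gene, with the stage on the horizontal axis and log10(normalized count + 1) of single sequencing runs on the vertical axis; circles are first runs, squares middle runs and triangles last runs. In 9 panels the first runs are highest in late desiccation and higher at 16 h than in dry seed, at 3 h and at 27 h. The last runs are low there, and in the panel of Glyma04g08020 the runs lie close together.

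Summed over the 9 genes, the share of reads in the first runs was 0.0829% ± 0.104 (SD, n = 3) in early desiccation, 0.351% ± 0.143 in mid desiccation and 4.50% ± 0.876 in late desiccation. It was 0.00327% ± 0.00154 in dry seed and 0.00834% ± 0.00899 at 3 h. At 16 h it was 1.02% ± 0.306, and at 27 h 0.00414% ± 0.00385. The share rose with each step of desiccation in the group means, was low in dry seed and at 3 h, and was higher at 16 h than at 3 h and 27 h. In the 20 last runs the 9 genes together took 0 to 425 reads of libraries of 5.02 to 80.08 M, at most 0.00106%. Early desiccation replicate 1 had 0 of 56.9 M reads, which allows up to 1.06 normalized counts at 3 reads, and this limit covers counting error only. The highest last-run sum, 163 normalized counts, was in early desiccation replicate 3, and the next, 136 and 113, were in late desiccation replicates 1 and 2; these 3 replicates were also the highest in the 7032 low genes, at 10.3, 9.84 and 7.64, and the part of that level in the last-run values was not tested.

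**Figure D2:**
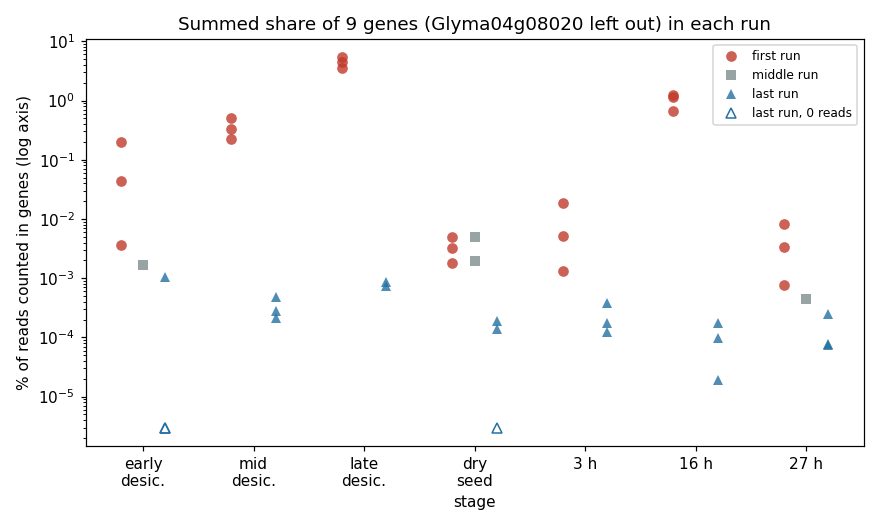
The vertical log axis gives the summed percentage of reads taken by 9 genes in each run, by stage; open triangles at the bottom are last runs with 0 reads of these genes. First runs of late desiccation lie between 3.60% and 5.35% and those at 16 h between 0.668% and 1.24%, and no last run exceeds 0.00106%.

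The run order was tested in early and mid desiccation, the stages that played no part in the choice; this comparison was added after the data were seen. Over their 6 replicates, 9 of the 10 genes were called higher in the first run than in the last by limma on paired log2(value + 1) differences, with a Benjamini-Hochberg adjusted p under 0.05 and at least 2-fold. Among all 38409 genes tested, 1.21% were called higher in the first run and 3.75% higher in the last. Genes entered if the mean of the 2 runs reached 10 normalized counts in 3 or more replicates. Apart from Glyma09g28800 and Glyma18g10324, the last runs of the 9 genes were at most 7.05 here. Those genes entered through their first runs alone and could be called in this direction only. Nothing is read from their count, their direction or the median of the 10 genes. Glyma11g33922 gave 1736, 134 and 9705 normalized counts in the first runs of early desiccation and 0, 0 and 4.99 in the last, and in mid desiccation 10501, 34548 and 23255 against 4.87, 1.16 and 0. First and last runs did not overlap in either stage. Its log2 difference was 11.30 ± 1.08 (SE). That of Glyma09g28800 was 9.53 ± 0.65 (limma adjusted p = 0.000718), and the smallest of the 9 was 6.04 ± 0.77 for Glyma07g08595. All 9 were higher in the first run in 6 of 6 replicates. The median of the 10 genes was 8.13, against -0.12 for all genes tested.

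**Figure D3:**
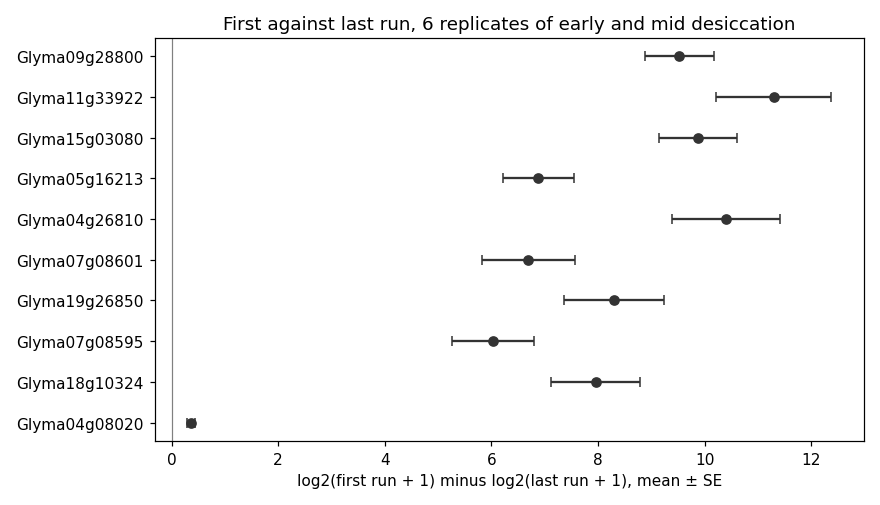
Points give the mean log2 difference of first minus last run over 6 replicates of early and mid desiccation for each gene, and bars the SE. The points of 9 genes lie between 6.04 and 11.30, and Glyma04g08020 lies at 0.36.

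Late desiccation and 16 h chose the genes, so the gap there is a description and nothing is read from its count. In the 5 replicate pairs of these stages each of the 9 genes was at least 10-fold higher in the first run in every pair. With 10 added to both values, the ratio ran from 44.6 for Glyma07g08595 to 20309.7 for Glyma11g33922. Of 14312 genes at 100 or more in either run of all 5 pairs, 75 (0.524%) behaved so, and 31 were at least 10-fold lower in all 5. In single replicates 95.65% to 98.11% of genes at this level were within 2-fold between the runs. Of the 66 other genes with the gap in all 5 pairs, 4 had the stage pattern in the first runs: Glyma13g12140, Glyma13g12170 and Glyma13g12201 in the interval left out, and Glyma16g29216. Here the pattern was taken against 3 h and 27 h only, with dry seed left out.

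By the levels of other genes, no dry seed run matched the first runs of the other stages. Genes other than the 10 that were at least 4-fold apart between first and last runs in at least 14 of 17 replicates outside dry seed were taken as a gauge, chosen after their values were seen. The median of 134 genes higher in first runs was 477 to 1016 normalized counts in the 18 first runs outside dry seed and 10.1 to 34.3 in the 20 last runs. The median of 124 genes higher in last runs was 0 to 17.7 in those first runs and 111 to 256 in the last runs. Outside dry seed these levels largely followed from how the genes were chosen. The 5 first and middle runs of dry seed gave 266 to 295 for the former and 193 to 247 for the latter, between the 2 kinds. Both middle runs outside dry seed, in early desiccation replicate 2 and 27 h replicate 3, were also in between, at 254 to 349 and 121 to 291. There the 9 genes summed to 367 and 52.5 normalized counts, against 777 and 88.1 in the first runs of the same replicates. In the dry seed the kind of run and the stage cannot be told apart, which limits what its low values of these 9 genes show. By this gauge the first runs at 3 h and 27 h were like those at 16 h, but the choice of its genes largely set that likeness. It therefore cannot show that low values at 3 h and 27 h are better measured than those of dry seed. In first runs the 9 genes together gave 232 to 3464 normalized counts at 3 h and 88.1 to 980 at 27 h. Both ranges lay below the 16 h range of 89684 to 176824.

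Early and mid desiccation played no part in the choice. With the runs averaged, 0 of the 10 genes were called in mid against early desiccation by limma (23 of 46537 genes rose, 0.0494%, and 0 fell), while 9 of the 10 had an unadjusted p under 0.05, as did 4.64% of the genes tested. Glyma19g26850, with the smallest p, gave 45.9, 16.7 and 209 normalized counts in early desiccation and 535, 766 and 437 in mid desiccation, without overlap. Its log2 difference was 3.34 ± 0.73 (SE, limma adjusted p = 0.162). Glyma09g28800 gave 814, 101 and 8059 in early and 8602, 23801 and 12845 in mid desiccation, a log2 difference of 3.98 ± 1.51 (limma adjusted p = 0.624). Replicate 3 of early desiccation was the highest of its stage by far in this gene. In 8 of the 10 genes all mid desiccation replicates lay above all early ones, as in 2.61% of the genes tested; Glyma05g16213 and Glyma04g08020 overlapped. The median log2 difference of the 10 genes was 3.16 and that of all genes 0.40, or 0.67 for all genes with TMM scaling. Early desiccation replicate 2 averaged 3 runs and the other replicates of these stages 2. With run 1 alone 0 of the 10 genes were called and 31 of all genes rose. The median log2 difference was then 3.30 for the 10 genes and 0.32 for all.

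Leaving out early desiccation replicate 3, which stood apart above, 9 of the 10 genes rose by limma, all except Glyma04g08020, but so did 19.4% of the genes tested. The log2 difference of Glyma19g26850 was then 4.29 ± 0.65 (limma adjusted p = 0.00212) and that of Glyma09g28800 5.58 ± 1.46 (limma adjusted p = 0.0262). With TMM scaling 1 of the 10, Glyma19g26850, was called at a background of 0.2%.

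**Figure D4:**
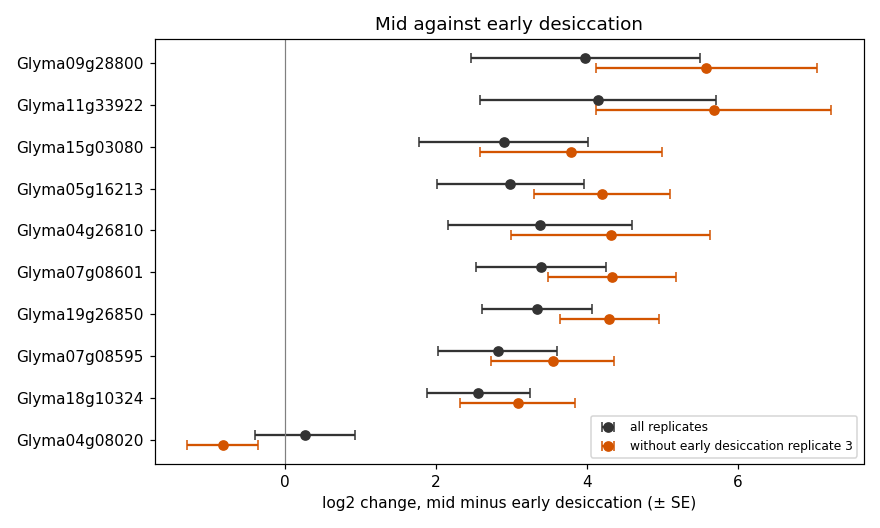
The horizontal axis gives the log2 difference of mid minus early desiccation with its SE for each gene, with all replicates in black and without early desiccation replicate 3 in orange. The 9 genes lie between 2.56 and 4.14 with all replicates, and Glyma04g08020 moves from 0.26 to -0.83.

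The 9 genes varied together across the first runs. Over 21 first runs, Pearson's r of log2 values between pairs of the 9 was 0.858 to 0.988 with a median of 0.947, values that share the stages and the libraries. Deviations from the stage means still gave 0.345 to 0.958, with a median of 0.738. These were not set beside other pairs of genes, so an effect shared by all genes of a library was not tested. Late desiccation replicate 3 was the highest of its stage in 9 of 9 genes, where 54.8% of genes at 100 or more were highest in it. At 16 h, replicate 2 was the lowest in 9 of 9, against 37.8% of genes, and early desiccation replicate 2 was the lowest in 9 of 9, against 19.1%. In no other case did the 9 share a lowest or highest replicate. For example, late desiccation was lowest in replicate 1 for 3 genes and in replicate 2 for 6. Dry seed was lowest in replicates 1 to 3 for 2, 2 and 5 genes.

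The genes most like Glyma09g28800 over these 21 first runs were ranked by r among 21579 genes. Including itself, 17 reached 0.9, of which 9 were the genes described here. These first runs include the stages that chose the genes, so a high r among the 9 was partly set by the choice. Nothing is read from that count. Dry seed first runs, which are of the in-between kind, are also included. The other 8 were Glyma13g12170, Glyma13g12201, Glyma13g12140 and Glyma13g12210 from the interval left out, and Glyma05g09990, Glyma13g12815, Glyma09g24785 and Glyma16g29216. The next gene, Glyma03g33330, had r = 0.891.

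Within the summed normalized counts of the 9 genes, which are not per length, Glyma09g28800 made up 56.0% ± 3.27 (SD, n = 3) in late desiccation and 50.2% ± 6.26 at 16 h in first runs. Glyma11g33922 made up 26.7% ± 1.37 in late desiccation and 34.7% ± 7.23 at 16 h. Glyma18g10324 made up 4.13% ± 0.881 in late desiccation and 2.67% ± 0.352 at 16 h. Early desiccation had 17.2% ± 11.6 and mid desiccation 10.7% ± 6.20. Shares at 3 h averaged 13.3% ± 9.31, and single 27 h first runs gave 4.62% to 28.1%, so these stages spread widely. In dry seed first runs, which are of the in-between kind, it made up 42.7% ± 6.76.

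By their IDs the 10 genes lie on 8 chromosomes. Glyma07g08595 and Glyma07g08601 follow each other directly in the table and had r = 0.936 over the 21 first runs. Of the 18 neighbouring genes that were not among the 10, 0 reached r = 0.9 with their neighbour, and the highest was 0.73. Several of them were near 0 in every stage, such as Glyma05g16140 with a highest stage mean of 4.69. Glyma04g08030 was at 0 throughout and has no r. For such genes a low r says little. No source used here gives the strand or the counting rules, so reads of overlapping genes or near-identical copies cannot be told apart.

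Glyma04g08020 entered with the lowest ratio, 2.06, just inside the limit; Glyma15g08560 at 1.74 and Glyma04g00500 at 1.73 were the first outside. With runs averaged it gave 411, 441 and 43.1 normalized counts in early desiccation and 342, 262 and 154 in mid desiccation. It gave 145, 79.4 and 139 in late desiccation, 64.1, 26.4 and 56.5 in dry seed, and 19.6, 32.9 and 70.1 at 3 h. The 16 h values were 210.4, 225 and 238, and those at 27 h 66.3, 28.7 and 66.0. The 16 h values lay above all late desiccation, dry seed, 3 h and 27 h values, and late desiccation overlapped none of the last 3 stages. Its highest stage mean was early desiccation, 299 ± 222 (SD, n = 3), where 1 replicate was low; in order followed mid desiccation, 16 h, late desiccation, 27 h, dry seed and 3 h. Early desiccation, mid desiccation and 16 h overlapped one another, as did 27 h, dry seed and 3 h. The ratio of first to last run, with 10 added, was 0.698 to 1.53 in all 20 pairs. In early and mid desiccation the log2 difference was 0.36 ± 0.07 (limma adjusted p = 0.00439), under 2-fold, with the first run higher in 6 of 6.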

How the data were processed

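The authors deposited 1 table of signal values, which are read counts divided by a size factor per library; the deposited values were whole multiples of 1 read within 0.001 reads (100% of values), which recovers the reads, 1 read being worth 0.173 to 8.95 normalized counts. Trimmomatic 0.38 and HISAT2 were used, per the submitters' processing notes. Extraction used a Qiagen column with DNase digestion and the libraries a TruSeq RNA kit, per the labels' protocols. Counting tool, build and annotation: not given in the sources used here. Of 46 samples, 45 matched a column; 1 column matched no label and was not used.

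Runs were averaged per replicate, giving 21 replicates. Genes reaching 10 normalized counts in 3 or more replicates entered limma 3.58.1 in R 4.3.3 (variance trend, robust) on log2(value + 1), all 7 stages in 1 fit, Benjamini-Hochberg adjusted, called at an adjusted p under 0.05 and 2-fold, a scale that understates changes of low genes. edgeR 4.0.16 and DESeq2 1.42.0 on recovered reads were alternatives, with 77 and 70 genes called in mid against early desiccation. The procedure was tested on simulated data, with the same spread in every gene and no outlying replicate. That test does not cover replicates as far apart as those of early desiccation. Deviations of same-numbered early and mid desiccation replicates gave r = 0.125, 0.362 and 0.514, the last being the highest of all pairs. Of differently numbered ones, early 1 with mid 2 gave 0.375 and early 2 with mid 1 0.124. The remaining pairs, each with replicate 3 of 1 stage, gave -0.132, -0.391, -0.491 and -0.476. The numbers therefore do not single out the pairs of replicates 1 and 2. Whether replicate 3 was paired between the stages cannot be told from this. The named genes were all 10 members and the first 2 outside. Members, lists and tests were chosen with earlier results of these data known.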

Additional observations from a re-analysis of the deposited data

How the results depend on the processing

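The count of genes called in mid against early desiccation, 0 of the 10 and 23 of all genes, became 1 and 91 with TMM scaling and 9 and 16903 without early and late desiccation replicate 3 together. With run 1 alone it was 0 and 31. Leaving out 1 early or mid desiccation replicate gave 0 to 9 of the 10 and 3 to 9027 of all genes, the highest without early desiccation replicate 3. All genes called were 77 with edgeR, 70 with DESeq2 and 40 with the last run alone (added after seeing the data), and with the replicate block 30, which changed no call among the 10. DESeq2 gave no p-value for the 9 genes other than Glyma04g08020, and the last run alone tested only 3 of the 10. Glyma04g08020, at 0.26 (log2), turned to -0.043 with edgeR and -0.35 with DESeq2, ranged from -0.83 to 0.84 without 1 replicate (lowest without early desiccation replicate 3), and was -0.83 without that and late desiccation replicate 3; the cause was not tested. Reapplying the rule found 9 or 10 of the 10 genes under every alternative run except the last run alone, which found 0; where 9 were found, Glyma04g08020 was the one lost. With the last run alone 5 genes, not 9, had their highest mean in late desiccation or at 16 h. The 10 genes' summed share in late desiccation, 3.23%, was 0.00142% in the last run alone. At 16 h it was 0.516%, 1.02% with run 1 alone and 0.00158% with the last run alone. Leaving out 1 early or mid desiccation replicate (added after seeing the data), 9 of the 10 genes were still called higher in the first run each time. Most of them could again be called in this direction only. Late desiccation replicate 3 has a first run only, so its value was not averaged with a low run as those of replicates 1 and 2 were.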
